A study of Homo sapiens with 2 samples.

Results

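Cyclins, cyclin-dependent kinases (CDKs), CDK inhibitors, pocket proteins and E2F transcription factors were examined in HEK-293 cells that had received a mimic of miR-204. Members were all probes, other than control spots, whose gene name in the array files is a cyclin from CCNA to CCNL, a numbered CDK or its older name CDC2, an inhibitor of the CDKN1, CDKN2 or CDKN3 series with a letter, a numbered E2F, RB1, RBL1 or RBL2. The rule used gene names alone and no measured value. It found 76 probes with 48 gene names, on 166 spots of each array, of 41000 probes with 30484 gene names. RefSeq lists 47 of the 48 names as current symbols, and CDC2 is now CDK1.

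HEK-293 is a line made from human embryonic kidney cells with sheared adenovirus DNA, and it carries the adenovirus E1A gene, whose protein binds the retinoblastoma protein. Cells in medium with 10% serum received 75 nM of either the mimic or scrambled oligos (the control), and RNA was harvested after 48 h. RNA of miR-204 overexpressing cells (mimic RNA) and control RNA were hybridized together on an Agilent whole genome array, with control in Cy3 and miR-204 in Cy5 on the first array and the dyes exchanged on the second, the swapped array. Both arrays lay on 1 slide, the sources name no second transfection, and the 2 arrays were counted as 1 replicate. No test below therefore compares the conditions over replicate cultures, and no value carries a spread between cultures. In such bulk RNA, fewer cells of a kind and less RNA per cell cannot be told apart. Of 8 genes listed as HEK-293 markers, 7 were well above background in every channel, among them NEFL, NEFM and VIM, and PAX2 was in none. Of 2 hepatocyte and 2 keratinocyte markers 0 were, and of 3 fibroblast markers COL1A1 and THY1 were. Each array held 43376 spots other than controls, and 25284 to 29024 of them were well above background in a given RNA and array. Positions of probes are on hg18, as in the files.

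MicroRNAs are short RNAs that pair through a seed near their 5′ end with messenger RNAs, most often lowering the level or translation of the message. The agent given here is a mimic of miR-204, which is encoded on chromosome 9. RefSeq (GRCh38.p14) gives 2 mature forms on the minus strand, shown because the treatment mimics this microRNA, with the seed (bases 2 to 8) in capitals. The sequence of the mimic itself is not given in the sources used here. The 5p form lies at chr9:70810031-70810052 and the 3p form at chr9:70809993-70810013.
hsa-miR-204-5p: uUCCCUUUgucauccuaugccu
hsa-miR-204-3p: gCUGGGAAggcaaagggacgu

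The products of these genes form the switch that drives a cell from growth into DNA replication and then mitosis. Cyclins rise and fall through the cycle and switch on their partner CDKs. Inhibitors of the INK4 family block CDK4 and CDK6, and those of the Cip/Kip family bind cyclin-CDK complexes more widely. CDKs phosphorylate the pocket proteins RB1, RBL1 and RBL2, which otherwise hold E2F factors and keep replication genes silent, and active E2Fs switch on genes for DNA replication and for later cyclins.

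No counted gene of the group passed 2-fold. A ratio was the log2 of miR-204 over control after quantile normalization of the processed signals of the 4 channels, and a gene was the mean of its counted probes. A probe was counted when it was well above background on both arrays in at least 1 of the RNAs, and it was called at a mean ratio of 1 or more in size with the same sign on both arrays. Of the 76 probes 71 were counted, 67 of them in all 4 channels, which gave 47 gene names. No member probe was called lower, against 131 of 25270 counted probes (0.518%), and none was called higher, against 31 (0.123%). By gene name, 0 of 47 were called in either direction, against 84 of 18585 lower (0.452%) and 28 higher (0.151%). At these shares fewer than 1 call in 47 names was the background, so that a count of 0 is near it.

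The median ratio of the 47 genes was -0.0028, beside 0.0022 over all 18585 counted gene names, and the SD over genes was 0.244 beside 0.265. A total of 38 genes (80.9%) lay within 0.3 of 0, beside 80.5% of all names. At 1.5-fold in the mean, again with the same sign on both arrays, no gene was lower (background 2.06%) and CCNE2 alone, 2.13% of the 47, was higher (background 1.44%). A total of 11 genes (23.4%) were lower on both arrays at any size and 11 (23.4%) higher on both, beside 22.8% and 24.5% of all names. The other 25 had opposite signs on the 2 arrays, of which 12 had the lower sign on the first array and 13 on the swapped array. These shares were close to those over all names, and the genes below are described for their values, not as calls.

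**Figure D1:**
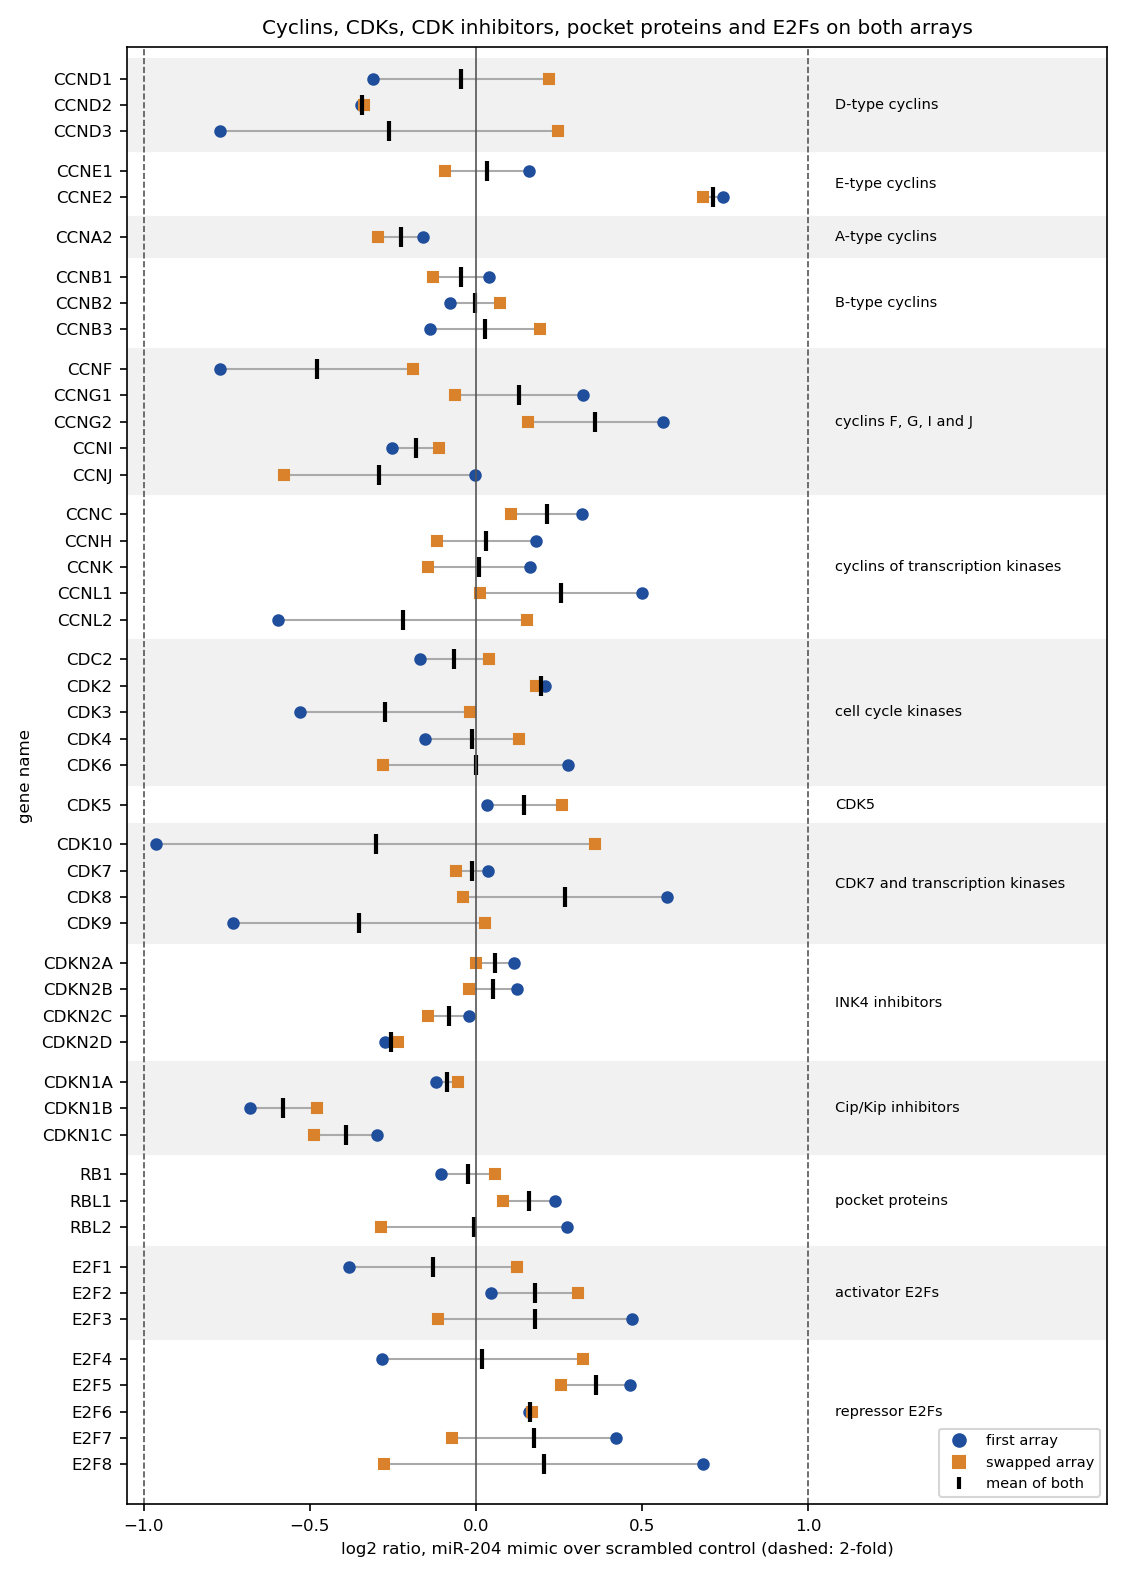
Log2 ratio of miR-204 over control (x axis) for the 47 counted gene names (y axis), grouped by role, on the first array (circles) and the swapped array (squares), with the mean of both (bar) and 2-fold as dashed lines. No mean reaches a dashed line, CCNE2 lies farthest to the right at 0.71 and CDKN1B farthest to the left at -0.58, and 25 genes have a circle and a square on opposite sides of 0.

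The ratios of the 2 arrays had a correlation near 0. Over the 71 counted probes the Pearson correlation between the first and the swapped array was -0.03 and the Spearman correlation -0.08, beside -0.03 and -0.05 over all 25270 counted probes. These are descriptions across probes that share the arrays, the dyes and, for some, a gene. The ratios of the 71 probes spread by an SD of 0.49 on the first array and of 0.25 on the swapped array. The mean of both arrays had an SD of 0.27 over probes, and a member's ratio on either array lay 0.28 (SD) from that mean, so that a typical mean was no larger than what parted the arrays.

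**Figure D2:**
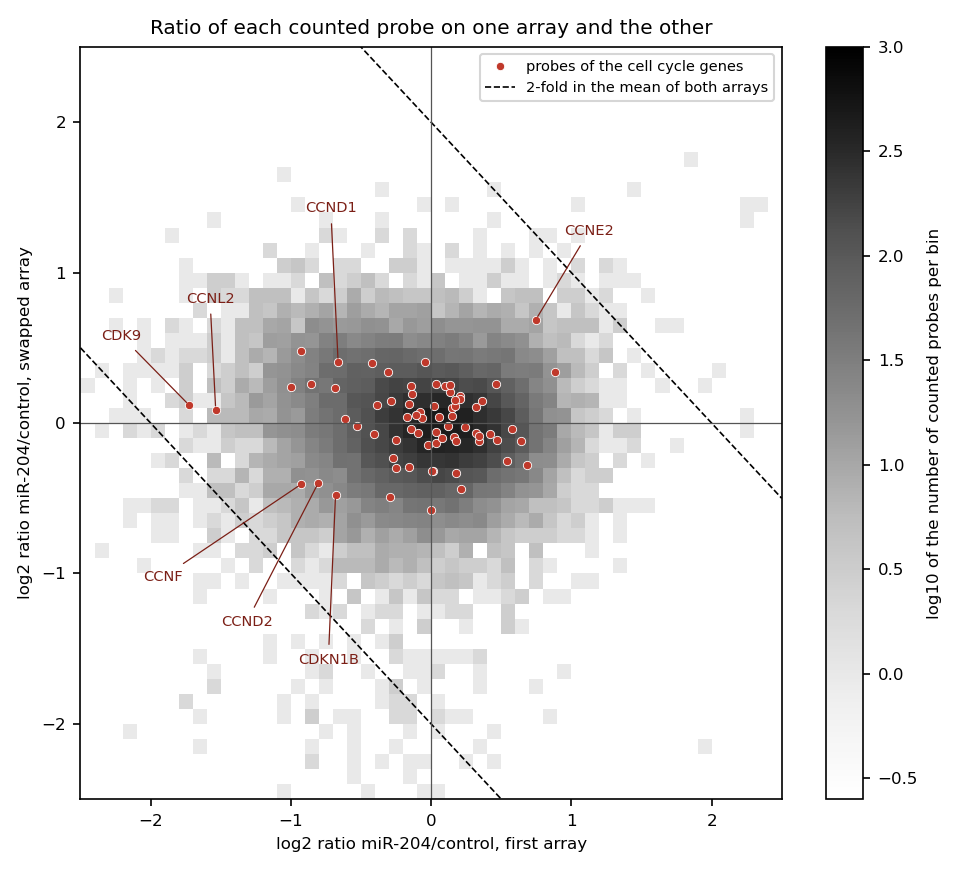
Log2 ratio of miR-204 over control on the first array (x axis) and the swapped array (y axis) for the 71 counted probes of the cell cycle genes (red) over all 25270 counted probes (grey, log10 of the number per bin; 16 probes lie outside the window), with 2-fold in the mean of both arrays as dashed lines. All red points lie between the dashed lines and spread more along the x axis, with an SD of 0.49 against 0.25.

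Repeated spots showed how much of this arose within an array. For 10 of the genes a probe was printed 10 times on each array, and its spots differed from one another by an SD of 0.015 to 0.15 on the first array and 0.014 to 0.087 on the swapped array. The mean of the spots had opposite signs on the 2 arrays for 5 of these 10 probes, was lower on both for 2 and higher on both for 3. The probe of CCND1, cyclin D1, ran from -0.79 to -0.60 over its 10 spots on the first array and from 0.30 to 0.48 on the swapped array. No spot of one array overlapped with a spot of the other, and the spots lay on opposite sides of 0. The probe of CDC2 (CDK1), the kinase of mitosis, ran from -0.21 to -0.13 on the first array and from -0.01 to 0.08 on the swapped array. The probe of E2F1, the founding E2F, ran from -0.43 to -0.35 and from 0.08 to 0.18. For CCNA2, cyclin A2, all 10 spots were below 0 on each array, from -0.25 to -0.10 and from -0.37 to -0.24. For CDKN2A all 10 spots were above 0 on each array, from 0.11 to 0.17 and from 0.06 to 0.13. Spots on 1 array share its RNA, dyes and hybridization, so that their small spread is not an error of the comparison.

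**Figure D3:**
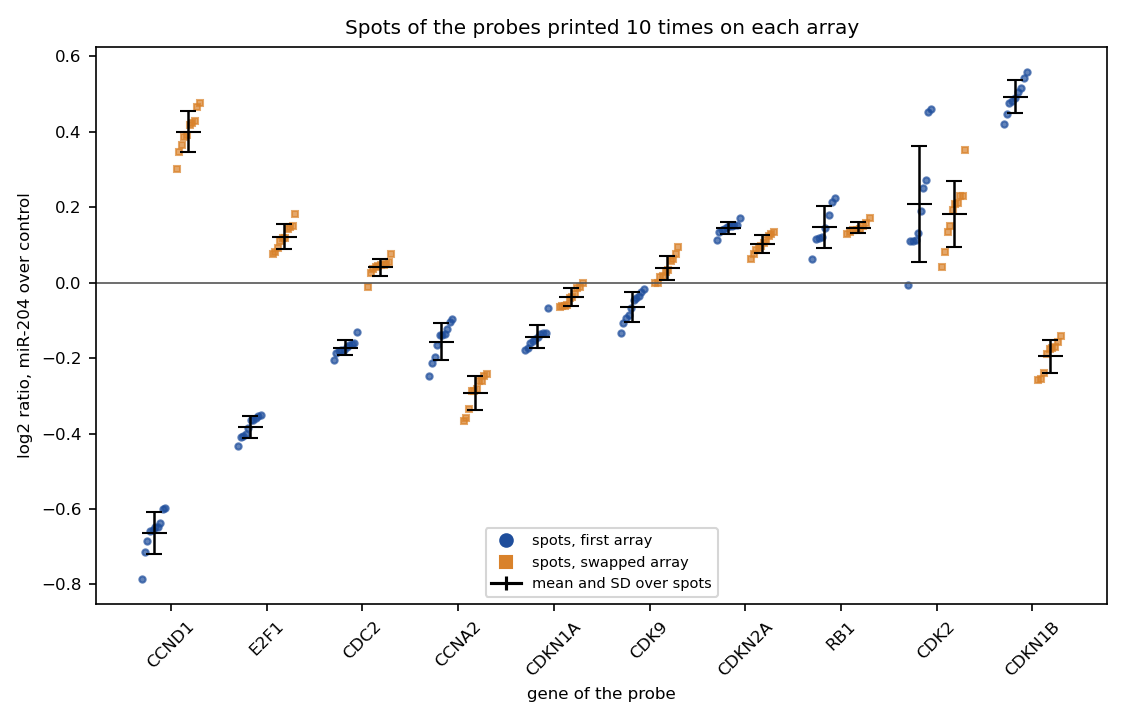
Log2 ratio of miR-204 over control (y axis) of each unflagged spot of the 10 probes printed 10 times (x axis, by gene) on the first array (circles) and the swapped array (squares), with the mean and SD over spots in black. The spots of a probe lie close together within an array, while for CCND1, E2F1, CDC2, CDK9 and CDKN1B the means of the 2 arrays lie on opposite sides of 0.

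The array software attached an error to each ratio, with a median over the 71 probes of 0.21 (log2) on the first array and 0.21 on the swapped array. By a rule chosen after values were seen, a probe passed where its ratio was at least 2 of these errors from 0 with the same sign on both arrays. Of the cell cycle genes 1 probe of CDKN1B was lower (1.41%, background 1.02%) and 0 were higher (background 0.879%). On the first array alone 2 probes (2.82%), of CCNL2 and CDK9, were at least 2-fold lower (background 2.87%) and 0 higher (background 0.768%), and on the swapped array alone 0 were lower (background 0.823%) and 0 higher (background 0.305%). Before adjustment limma's test, run over arrays counted as 1 replicate, passed 5 of the 71 probes at p below 0.05 (7.04%, background 4.66%), of CCND2, CCNE2, CCNF, CCNG2 and CDKN1B. The methods' t-test over the 4 channels passed 6 (8.45%, background 6.35%), of CDKN1B, CDKN1C, CDKN2D, E2F2 and, for 2 probes, E2F6. After Benjamini-Hochberg adjustment over all counted probes the number was 0 by both. Both tests take arrays or channels of 1 replicate as their units, so that neither compares the conditions over replicate cultures.

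D-type cyclins answer to growth signals and pair with CDK4 and CDK6 in G1. Their means were -0.34 for CCND2, -0.26 for CCND3 and -0.04 for CCND1, with a median of -0.26. CCND2, cyclin D2, had 3 probes on chromosome 12 of hg18. The first lay at chr12:4258280-4258339, with processed signals of 1113 in the control and 637 in the mimic RNA on the first array, and 794 and 606 on the swapped array, which gave ratios of -0.80 and -0.40. The probe at chr12:4279592-4279651 had 0.01 and -0.32. The probe nearest the 3′ end, at chr12:4284301-4284360, read 2736 and 2273 on the first array and 1735 and 1409.5 on the swapped array, ratios of -0.25 and -0.30. All 3 probes thus had a mean below 0, and as a gene CCND2 had -0.35 on the first array and -0.34 on the swapped array. That match is one of averages, since the first probe was lower on the first array and the second on the swapped array. Of all gene names 8.26% had a mean at or below that of CCND2, which was short of 1.5-fold.

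The other D-type cyclins had opposite signs on the 2 arrays as genes. CCND3, cyclin D3, had 2 probes on chromosome 6, at -0.85 and -0.69 on the first array and 0.26 and 0.24 on the swapped array. The brighter of them, at chr6:42011171-42011230, read 1235 in the control and 762 in the mimic RNA on the first array, and 745 and 877 on the swapped array. On both arrays the Cy5 channel was the lower of the pair, and the part of the dye in this was not tested. CCND1 had 3 probes with means of -0.13, -0.07 and 0.07, and as a gene it was -0.31 and 0.22. The third of them, at chr11:69176451-69176510, was above 0 on both arrays, at 0.02 and 0.11.

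E-type cyclins pair with CDK2 at the entry into S phase. CCNE2, cyclin E2, had the highest ratio of the 47 genes. Its only probe, on chromosome 8 of hg18 from 95962976 to 95963035, read 30.6 in the control and 52.0 in the mimic RNA on the first array, and 14.2 and 21.1 on the swapped array. The ratios were 0.75 and 0.68, with a mean of 0.71, and 0.689% of all gene names lay at or above it. The signals were dim, 1 of the 4 channels was not well above background, and the software errors were 0.29 and 0.51. With normexp background correction and loess the mean was 0.19, and the gene was not counted where all 4 channels had to stand well above background. CCNE1, cyclin E1, read 8886 and 9914 on the first array and 6882 and 6490.0 on the swapped array. Its ratios of 0.16 and -0.09 lay on opposite sides of 0.

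Cyclin A pairs with CDK2 and CDK1 in S phase and G2, and B-type cyclins with CDK1 in mitosis. CCNA2, at chr4:122959445-122959504, read 901 in the control and 794 in the mimic RNA on the first array, and 634 and 522 on the swapped array, with ratios of -0.16 and -0.29. It was lower on both arrays, by less than 1.5-fold. CCNA1, the cyclin A of the germ line, stood well above background in no channel and was not counted. The mitotic cyclins CCNB1, CCNB2 and CCNB3 had means from -0.05 to 0.03, all with opposite signs on the arrays. A second CCNB2 probe, which the files place on the strand opposite to the first, stood well above background in no channel.

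Cyclins F, G, I and J are less closely tied to CDK steps. CCNF, the F-box cyclin of a ubiquitin ligase, had 2 probes on chromosome 16. The probe at chr16:2447887-2447946 read 88.8 and 46.4 on the first array and 37.8 and 28.1 on the swapped array, with ratios of -0.92 and -0.41, and 1 of its channels was not well above background. The probe at chr16:2447223-2447282 had -0.62 and 0.02. The gene mean was -0.48, at or below which lay 3.85% of all gene names, and the brighter probe did not repeat the lower value on the swapped array. CCNJ had a single probe at -0.002 on the first array and -0.58 on the swapped array, a mean set by the latter. CCNI had -0.25 and -0.11.

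CCNG2, a cyclin linked to cell cycle arrest, had the highest mean after CCNE2 and E2F5, at 0.36. Its probe at chr4:78301734-78301883 read 53.5 in the control and 99.6 in the mimic RNA on the first array, and 38.1 and 48.0 on the swapped array, ratios of 0.88 and 0.34. The brighter probe at chr4:78306719-78306778 read 1021 and 1207, then 700.3 and 688, ratios of 0.24 and -0.03. With the brightest probe in place of the mean the gene was 0.11. CCNG1, a close relative of it, had 0.32 and -0.06.

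Cyclins C, H, K and L pair with kinases that act on RNA polymerase II or on splicing. CCNC, at chr6:100098073-100098132, had 0.32 and 0.11, and CCNL1 had 0.50 and 0.01, both higher on both arrays. For CCNL1 this held as an average, since 1 of its 2 probes had 0.64 and -0.12 and the other 0.36 and 0.14. CCNL2 had 3 probes that parted. The one at chr1:1311203-1311262 read 906 in the control and 309 in the mimic RNA on the first array, a ratio of -1.54, and 500.0 and 537 on the swapped array, a ratio of 0.09. Of the other 2, one had 0.06 and 0.04, a mean of 0.05. The brightest had -0.31 on the first array and 0.34 on the swapped array, a mean of 0.02. A value past 2-fold lower was thus seen with 1 probe on 1 array, while the brightest probe was also lower on that array. The gene mean of -0.22 became 0.02 with the brightest probe. CCNH and CCNK had means of 0.03 and 0.01.

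The kinases of the cell cycle had means from -0.27 to 0.20. CDK2, the partner of cyclins E and A, was higher on both arrays, at 0.21 and 0.18, and its probe was printed 10 times at chr12:54652056-54652115. Its processed signal was 173 in the control and 201 in the mimic RNA on the first array, and 105 and 119.5 on the swapped array. Its spots ran from -0.01 to 0.46 on the first array, the widest of the 10 repeated probes. CDK4 read 14602 and 12820.5 on the first array and 9222 and 10083 on the swapped array, ratios of -0.15 and 0.13. CDK6, the other partner of D-type cyclins, had 2 probes with means of -0.11 and 0.11, and as a gene it had 0.28 and -0.28. CDC2 had -0.17 and 0.04. CDK3 had -0.53 and -0.02, and CDK5, a kinase active mainly in neurons, 0.03 and 0.26. The kinases of the G1 and mitotic steps thus stayed within 0.3 of 0 in the mean.

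Of the 47 genes CDK10, a partner of cyclin M, had the widest gap between the arrays. It had 2 probes, at -0.999 and -0.92 on the first array and 0.24 and 0.48 on the swapped array. The brighter of them, at chr16:88288957-88289238, read 267 in the control and 133 in the mimic RNA on the first array, and 118 and 140.0 on the swapped array, so that the lower channel carried Cy5 on each. CDK8, the Mediator kinase, had 0.57 and -0.04. CDK9, the kinase that releases paused RNA polymerase II, had 3 probes on chromosome 9. The one at chr9:129592077-129592136, printed 10 times, had -0.07 and 0.04, and the one at chr9:129588294-129588813 had -0.40 and -0.07. The third, at chr9:129592320-129592379, read 44.05 in the control and 13.9 in the mimic RNA on the first array, and 23.7 and 24.6 on the swapped array, ratios of -1.72 and 0.12. It was not well above background in the mimic RNA on either array. Its fold in the mean of both arrays is therefore given as a bound, at least 1.63-fold lower, with no fall on the swapped array alone. Unlike the ratios, it was taken after quantile normalization of the average intensities of the arrays, not of the channels. That bound pools arrays of opposite sign and is open to dye bias, and the gene mean of -0.35 became -0.02 with the brightest probe. CDK7, which activates other CDKs and phosphorylates RNA polymerase II, had a mean of -0.01.

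**Figure D4:**
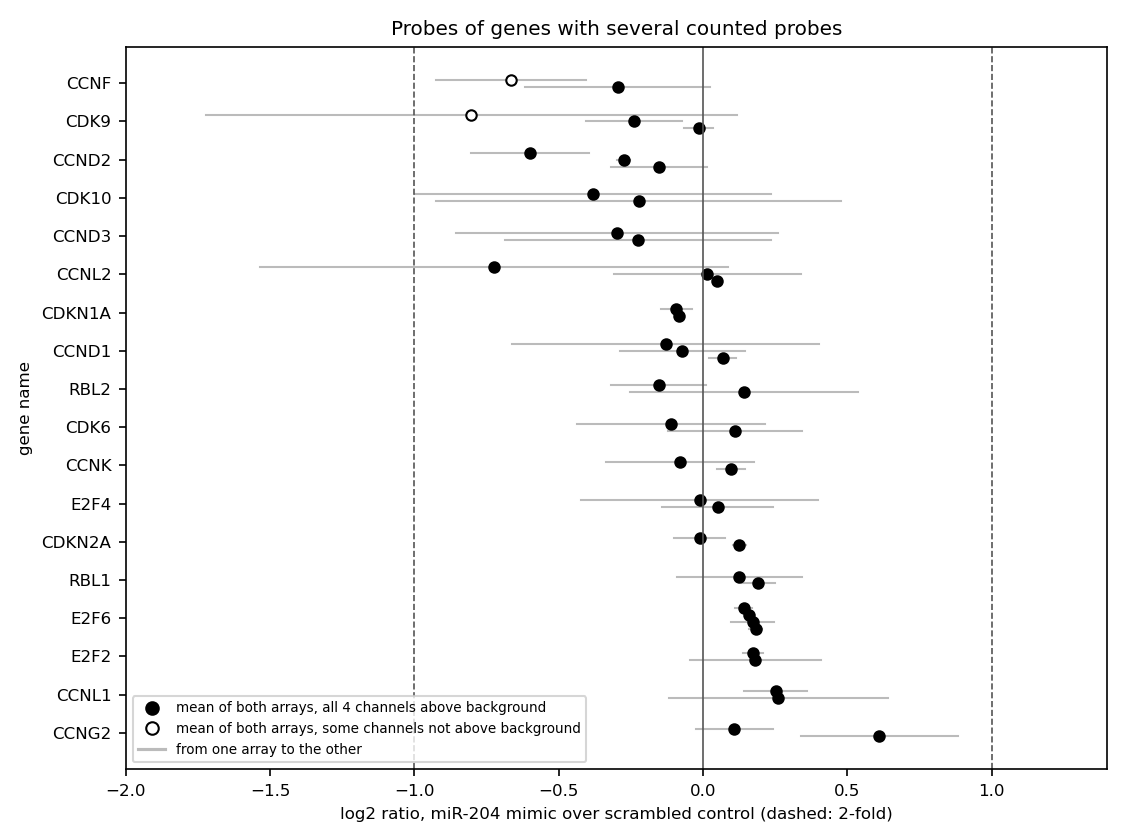
Log2 ratio of miR-204 over control (x axis) for each probe of the 18 gene names with several counted probes (y axis), as the mean of both arrays (points, open where some channels were not well above background) with a line from one array to the other. The 4 probes of E2F6 lie between 0.14 and 0.18, whereas 1 probe of CCNL2 at -0.72 and 1 of CDK9 at -0.80 lie apart from the others of their gene.

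For the 18 genes with several counted probes, no 2 probes of a gene differed by over 1 in the mean. In 7 of the 18 the probe nearest the 5′ end had the lower mean, and the median difference of the outer probes, 5′ minus 3′, was 0.01.

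Inhibitors of the Cip/Kip family were lower on both arrays, 3 of 3, with a median of -0.39, whereas 22.8% of all gene names were. For CDKN1A the ratios were small, at -0.12 and -0.05. CDKN1B, p27, which holds cyclin E-CDK2 in check and is lost as cells enter S phase, had the lowest mean of the 47 genes. Its counted probe, at chr12:12762386-12762445, read 165 in the control and 103 in the mimic RNA on the first array, and 124 and 89.0 on the swapped array, with ratios of -0.68 and -0.48. The mean of -0.58 was just short of 1.5-fold, and 2.45% of gene names had a mean at or below it.

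A second CDKN1B probe, at chr12:12766207-12766266 toward the 3′ end, did not show this. It was printed 10 times and left out because 1 of its spots was flagged as an outlier. Over the other 9 spots it read 523 in the control and 728 in the mimic RNA on the first array, and 479 and 424 on the swapped array. All 9 spots were above 0 on the first array, from 0.42 to 0.56, and all 9 below 0 on the swapped array, from -0.26 to -0.14. With those spots kept the CDKN1B mean was -0.22, and with normexp background correction and loess it was -0.31. The lower value of CDKN1B therefore rests on 1 probe.

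CDKN1C, p57, an imprinted inhibitor of embryonic growth, had 1 probe at chr11:2861479-2861538. It read 2169 and 1757 on the first array and 1581 and 1127 on the swapped array, with ratios of -0.30 and -0.49. Its mean of -0.39 stayed between -0.42 and -0.39 under every setting that used both arrays, and 6.13% of gene names lay at or below it. CDKN1A, p21, the inhibitor induced by DNA damage, had 2 probes with means of -0.09 and -0.08. Of all gene names 33.4% had a mean at or below that of CDKN1A. Its repeated probe, at chr6:36762684-36762743, read 3388 in the control and 3025 in the mimic RNA on the first array, and 2492 and 2422 on the swapped array. All 10 spots lay below 0 on each array.

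INK4 inhibitors, which block CDK4 and CDK6, had a median of -0.02. CDKN2D, p19, had the lowest mean of them. It read 2206 in the control and 1809.8 in the mimic RNA on the first array, and 1543 and 1308 on the swapped array, ratios of -0.27 and -0.24. CDKN2C, p18, had -0.02 and -0.14. CDKN2A, the gene of p16 and ARF, had 2 probes in its shared part with means of 0.13 and -0.01. As a gene it had 0.11 on the first array and 0.0008 on the swapped array. Its repeated probe at chr9:21957780-21957839 read 12058 and 13039 on the first array and 7831 and 8365 on the swapped array. CDKN2B, p15, had 0.12 and -0.02 on its counted probe, while its second probe stood well above background in no channel. Over all 7 inhibitors 5 were lower on both arrays and 1 was higher on both, beside 22.8% and 24.5% of all names. The latter was CDKN2A, at 0.0008 on the swapped array, where its brighter probe had -0.10. Of the 5, CDKN1B rests on 1 counted probe, while its left-out probe had opposite signs on the arrays.

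Pocket proteins had gene means near 0, from -0.02 to 0.16. RB1, the retinoblastoma protein, had -0.10 and 0.06 on its counted probe, which was dim and not well above background in 1 channel. Its repeated probe, left out for 2 flagged spots, had 0.15 on the first array and 0.15 on the swapped array over the other 8 spots, all above 0. RBL1, p107, was 0.24 and 0.08 as a gene, while its brighter probe had 0.34 and -0.09. RBL2, p130, had 2 probes with means of -0.15 and 0.14, both above 0 on the first array and below 0 on the swapped array. As a gene RBL2 had 0.27 and -0.285.

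E2F factors had mostly positive means. Of 8 counted, 0 were lower on both arrays and 3 were higher on both, beside 22.8% and 24.5% of all names, with the other 5 of opposite sign, and the median ratio was 0.18. The mean was above 0 for 7 of 8 (87.5%), beside 50.4% of all gene names, and none reached 1.5-fold. E2F6, a repressor that works without pocket proteins, was the gene of the 47 whose arrays lay closest, and it had 4 probes on chromosome 2. The brightest, at chr2:11502975-11503034, read 4773 in the control and 5229 in the mimic RNA on the first array, and 3474 and 3769 on the swapped array. Its 4 probes had means from 0.14 to 0.18, each above 0 on both arrays, and the gene had 0.16 on the first array and 0.17 on the swapped array. Probes this close share most transcripts and are not independent of each other, and 22.0% of all gene names had a mean at or above that of E2F6.

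Among the other repressors, which hold targets silent together with pocket proteins or alone, E2F5 had the highest mean. It read 881 in the control and 1208 in the mimic RNA on the first array, and 588 and 704 on the swapped array, ratios of 0.46 and 0.26, and 5.99% of gene names lay at or above it. E2F7 had 0.42 and -0.07, and E2F8 0.68 and -0.28. E2F4, the most abundant E2F of resting cells, had 2 probes with means of -0.01 and 0.05, each below 0 on the first array and above 0 on the swapped array. E2F7 and E2F8 thus had the sign opposite to that of E2F4 on each array, and these means rest on ratios of opposite sign.

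Of the activators, which drive S phase genes, E2F2 was higher on both arrays as a gene, at 0.05 and 0.31. Its brighter probe, at chr1:23705520-23705579, read 5873 in the control and 6297 in the mimic RNA on the first array, and 4188 and 4875 on the swapped array, ratios of 0.14 and 0.21. E2F3, at chr6:20601824-20601883, read 6894 and 9619 on the first array and 5071 and 4691 on the swapped array, ratios of 0.47 and -0.11. E2F1, at chr20:31727650-31727709, read 2003 and 1528, then 1154 and 1258, ratios of -0.38 and 0.12. The 2 latter genes differed in sign on each array.

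E2Fs are known to switch on E2F genes themselves and other parts of the switch. RefSeq promoters, the 250 bases before and 50 after a start, were at hand for 41 member genes, and those of CCND1, CCND2, CCNE2, CDK2, CDKN1C, E2F5 and E2F8 were not used here. The letters TTTCCCGC, TTTGGCGC, TTTGCCGC or TTTCGCGC, on either strand, occurred in 6 of the 41 (14.6%), beside 1090 of 27305 genes (3.99%). The 6 were E2F1, E2F2, E2F3, RBL1, CDC2 and CDK10. Their median ratio was 0.05, and that of the 34 counted members without these letters was -0.004. The letters TTTGAA or TTCGAA, the cell cycle homology region, occurred in 17.1% of members beside 19.5% of all genes, and CCAAT in 43.9% beside 39.7%.

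The bases before the start that hold the E2F letters, in capitals, are shown for 4 of the 6, E2F1 and E2F3 as activators, a pocket protein and the mitotic kinase, because through such letters E2Fs are known to act on genes of their own circuit. They are from GRCh38.p14, at chr20:33686386-33686458 (minus strand) for E2F1, chr6:20401786-20401873 (plus) for E2F3, chr20:37095998-37096063 (minus) for RBL1 and chr10:60778310-60778397 (plus) for CDC2. A match is a description and not a site.
E2F1: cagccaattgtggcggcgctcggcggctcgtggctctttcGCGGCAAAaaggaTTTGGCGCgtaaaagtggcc
E2F3: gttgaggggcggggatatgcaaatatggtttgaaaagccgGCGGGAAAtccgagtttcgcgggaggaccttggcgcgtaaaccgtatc
RBL1: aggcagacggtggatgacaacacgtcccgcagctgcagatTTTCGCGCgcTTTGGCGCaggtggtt
CDC2: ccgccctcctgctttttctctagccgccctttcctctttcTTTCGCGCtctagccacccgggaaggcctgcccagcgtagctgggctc
Both E2F1 and RBL1 carry 2 matches close together and just before the start, with the first base of the nearer one 20 and 16 bases before it. The ratios of these 4 genes in miR-204 overexpressing cells were -0.13 for E2F1, 0.18 for E2F3, 0.16 for RBL1 and -0.06 for CDC2, so that they lay on either side of 0.

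Genes downstream of the switch were read from lists. Of 33 counted genes of DNA replication and S phase under E2F control, such as the MCM helicase and PCNA, none was past 1.5-fold. A total of 12 were higher on both arrays and 3 lower on both, beside 24.5% and 22.8% of all gene names. The median was 0.04, and 22 (66.7%) were above 0 in the mean, beside 50.4% of all names. The highest was MCM10, a factor of replication initiation, at 0.52 on the first array and 0.11 on the swapped array, a mean of 0.31. The lowest means were those of LIG1, a DNA ligase, at -0.31 and UNG, which removes uracil, at -0.26. LIG1 had -0.65 on the first array and 0.03 on the swapped array, and UNG had -0.22 and -0.31. Of 30 counted genes of G2 and mitosis, 8 were lower on both arrays and 3 higher on both, with a median of -0.07, to be read against the same shares. The lowest means were those of CDC20, the activator of the anaphase complex, at -0.39 and AURKB, a kinase of chromosome segregation, at -0.37. Both means were set by the first array, with -0.83 and then 0.04 for CDC20 and -0.74 and then -0.01 for AURKB. The highest were BIRC5, survivin, at 0.30 and 0.09 with a mean of 0.20, and ECT2, at 0.56 and -0.20 with a mean of 0.18. No gene of this list was past 1.5-fold.

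Regulators of the CDKs and E2Fs, from the kinases and phosphatases that act on CDKs to the DREAM complex, had a median of -0.03 over 25 genes, with 7 lower on both arrays and 4 higher on both, beside 22.8% and 24.5% of all names, and none past 1.5-fold by the rule. SKP2, the ubiquitin ligase subunit that marks p27 for destruction, had -0.59 and -0.51, a mean of -0.55. It was lower on both arrays, as was the counted probe of CDKN1B. LIN54, a DNA-binding subunit of DREAM, had 0.03 on the first array and -1.96 on the swapped array. The highest were MYC, at 0.48 and 0.03 with a mean of 0.26, and CABLES1, at 0.23 and 0.16 with a mean of 0.19.

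Cyclins and kinases of the same family whose names the rule did not take had a median of -0.17 over 14 counted of 15 on the array, with 7 lower on both arrays and 1 higher on both, beside 22.8% and 24.5% of all gene names. CCNT1, the cyclin partner of CDK9, was 1 of the 14 past 1.5-fold lower in the mean (background 2.06%), at -1.21 on the first array and -0.004 on the swapped array, so that its mean was set by the first array. PFTK1, now CDK14, had -0.45 and -0.61. The highest means were 0.11 for CCNT2, which had 0.24 and -0.03, and 0.04 for CCRK, which had -0.10 and 0.19.

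**Figure D5:**
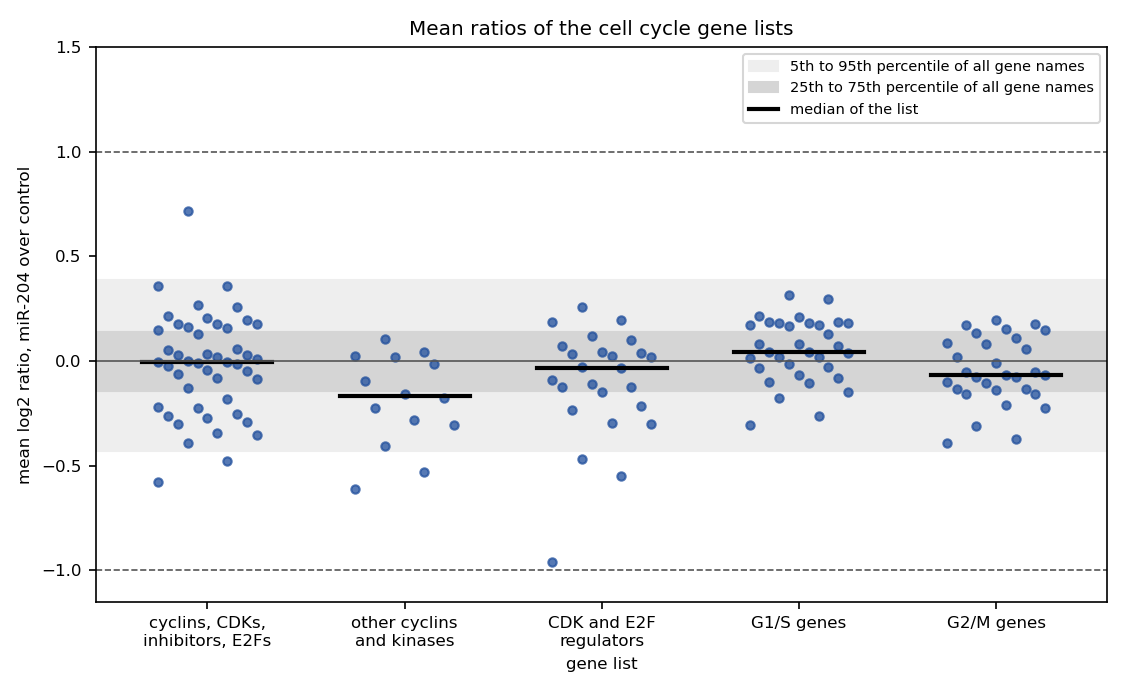
Mean log2 ratio of miR-204 over control of both arrays (y axis) for each counted gene of the cell cycle genes and of 4 related lists (x axis), with the median of a list as a bar and the percentiles of all 18585 counted gene names as grey bands. Among the lists shown, no point passes the dashed 2-fold lines, and the medians are -0.17 for the other cyclins and kinases, -0.03 for the regulators, 0.04 for the G1/S genes and -0.07 for the G2/M genes.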

How the data were processed

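The authors extracted the arrays with Agilent Feature Extraction 9.5.3.1. The deposited processed signals are intensity values, corrected for background and dye by that software, a surrogate standing in for signals near or under background. The authors' deposited log ratio and its error are log10 values of Cy5 over Cy3, and the deposited series table holds log2 ratios. The mean and background signals used for normexp are deposited intensity values without correction.

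Control spots were left out, and so were the 128 probes (208 spots) with an outlier flag. Spots of a probe were averaged, and log2 processed signals were quantile normalized over the 4 channels with limma 3.58.1 in R 4.3.3, the authors' methods naming quantile normalization. The swapped array was turned. Tables and figures were made with Python 3.11.15. The members and lists were chosen with earlier results of these data known. Every member is accounted for by role, and values are given in full for the 12 genes with the largest mean and 1 sign on both arrays, the 6 with the largest difference between arrays and all E2F, INK4 and Cip/Kip members, with the 2 highest and 2 lowest of each list. Some genes and lists that meet this rule are not reported here. Other genes and probes described were chosen after their values were seen. The steps were tested on simulated data, where 200 of 200 probes changed by a log2 of 2 among 25270 were recovered and 13 unchanged probes were called. The planted change was above the called ratio of 1, in probes well above background in all 4 channels, and without dye bias. The simulation therefore does not bear on smaller or dimmer ratios. Probes were not placed in coding sequence, as probe sequences were not used here. Precision is limited by there being 2 arrays.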

Additional observations from a re-analysis of the deposited data

How the results depend on the processing

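Under every setting that used both arrays, 0 member probes and 0 member genes were past 2-fold. The settings were normexp and loess, processed signals as they stand, quantile normalization of ratios, array medians set to 0, the log ratio column, the series table, no filter on signal, all 4 channels above background, flagged spots alone left out, the brightest probe, 2-fold on each array, the methods' t-test and limma. With 1 array left out in turn, member probes lower by 2-fold ranged from 0 to 2, genes lower by 1.5-fold from 0 to 6 and genes higher by 1.5-fold from 1 to 2. With array medians set to 0, 1 gene, CDKN1B, was lower by 1.5-fold, at -0.5871 in place of -0.5804, with 1.5-fold at 0.585 in size. With normexp and loess, and with all 4 channels above background, 0 genes were higher by 1.5-fold. In the latter setting CCNE2 was not counted. The cause of the moves with normexp and loess or with 1 array left out was not tested. The median of the member genes lay between -0.0204 and 0.0345 under every setting. Of the 28 genes given in full, 24 kept 1 sign under every setting with both arrays, and CCNL2, CDKN2A, CDKN2B and E2F4 did not. No paired analysis was possible because 1 dye swap gives 1 replicate. Low signal over background limits CCNE2, 1 probe of CCNF, 1 of CDK9 and 1 of RB1.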
